A study of Drosophila melanogaster with 3 samples.

Results

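The genes of the insulin signalling chain were examined in adult fly brain cells that were marked as carrying the receptor of adipokinetic hormone (AKHR+ neurons). The list, which was drawn up with earlier results of these data known, was matched by gene symbol and named InR, chico, Pi3K92E, Pi3K21B, Pdk1, Akt, foxo, Thor and ImpL2. Of these 9 genes, 8 had a line among the 11922 genes measured, and Pdk1 is not analysed here. The data were 3 RNA-seq libraries of a single group, called cells 1, 2 and 3 after the numbers of their labels. All came from flies 5 days old and kept on normal food, which carried the driver nSyb-AD-AKHR-BD-GAL4 and the reporter UAS-mCD8gfp. In this split-GAL4 design membrane-bound GFP is made only where the promoters of nSyb, a pan-neuronal gene, and of AKHR are both active. Marked cells were drawn into a glass pipette, and whether each library holds 1 cell or a small pool cannot be told from the labels, so every SD below is a spread between libraries. Expression was given as FPKM, that is, fragments scaled to the length of the exons and to the mapped total. With no second condition, genes were compared within cells and cells with each other.

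Insulin signalling tells fly tissues that food has been eaten. Insulin-like peptides bind the receptor InR, a tyrosine kinase, which acts through the substrate adaptor Chico on phosphatidylinositol 3-kinase (PI3K), and the lipid made by PI3K brings Pdk1 and Akt to the membrane. Akt phosphorylates the transcription factor FOXO and so keeps it out of the nucleus, whereas in hunger FOXO enters the nucleus and switches on genes such as Thor, which encodes the translation inhibitor 4E-BP. ImpL2 encodes a secreted protein that binds insulin-like peptides and blocks their action. The study names these peptides as the satiety signal and adipokinetic hormone as the hunger signal for AKHR+ neurons, and it was therefore asked at what level these cells carried the genes of the insulin chain.

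The libraries were alike in estimated depth but not in the number of genes they detected. Depth was estimated from the step between low FPKM values at 6620000, 6240000 and 6520000 fragments in cells 1, 2 and 3. At FPKM of at least 1, taken as detected, cell 1 held 36.8% of all genes, cell 2 held 50.7% and cell 3 held 47.2%. The 4 neuronal markers with a line were detected in every cell, with a summed FPKM of 584 to 813. Markers of other cells were present as well. Of the 6 glial markers 5 were detected in all cells (summed FPKM 1940 to 2939), of the 5 photoreceptor markers 5 (2479 to 6678), and of the 6 fat body markers 4 (20173 to 32892), while the fat body markers Fbp1 and Fbp2 were listed at 0 throughout. Of the 3 octopaminergic markers, Vmat was detected in every cell, while in cell 1 both Tdc2 and Tbh had a listed value of 0. The part of these other cells in the values below was not tested.

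In all, 5 of the 8 genes with a line (InR, Pi3K21B, foxo, Thor and ImpL2) were detected in all 3 cells, where 31.1% of all genes were. Cell 1 had 5 of the 8, cell 2 had 8 and cell 3 had 7. The 2 genes at the output and the brake of the chain, Thor and ImpL2, stood above the 6 genes that pass the signal on. Their lowest value in any cell, 36.3 FPKM for Thor in cell 1, was above the highest value of the other 6 genes in any cell, 31.8 FPKM for Pi3K21B in cell 3. Over the 8 genes the median FPKM came to 5.63 in cell 1, 9.46 in cell 2 and 13.9 in cell 3, averaging 9.66 ± 4.14 (SD, n = 3). The median FPKM of genes above 0 was 30.99, 21.7 and 23.4 in the same cells.

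**Figure D1:**
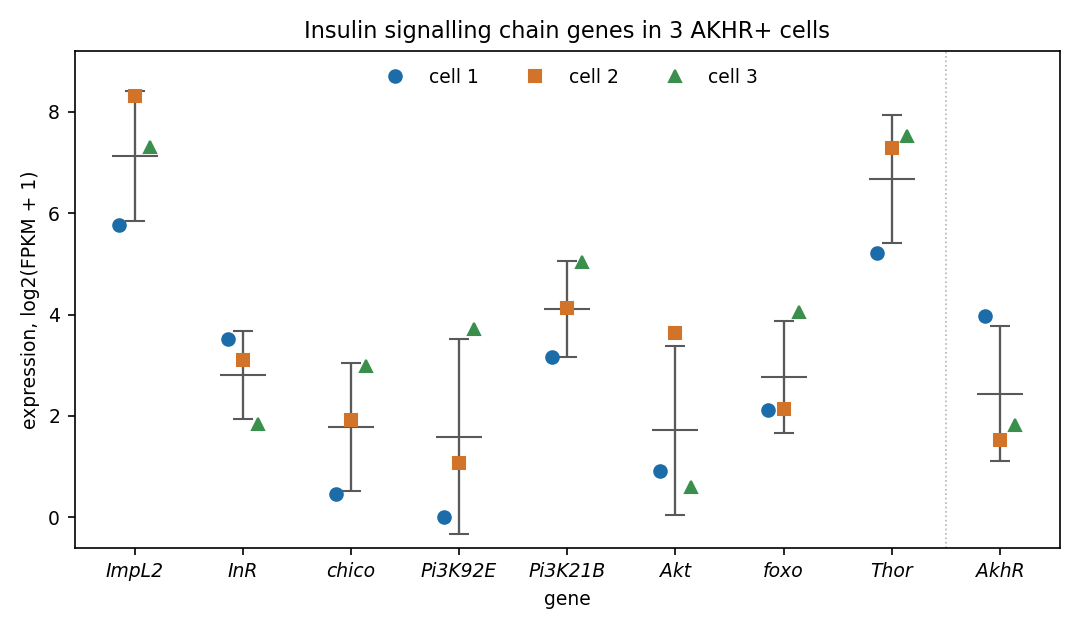
Expression of the 8 insulin chain genes and of AkhR, in log2(FPKM + 1), with the genes along the x axis. Points are the 3 cells, and the horizontal bar with its whiskers is the mean ± SD over cells. ImpL2 and Thor lie above the other 6 chain genes in each cell, and Pi3K92E is listed at 0 in cell 1.

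InR (FBgn0283499) encodes the only receptor of the fly that signals for insulin-like peptides through a tyrosine kinase. Its locus is 21570248 to 21619321 of chromosome 3R, minus strand, in BDGP6, with 4 annotated transcripts of 9997 to 10706 bases. Cells 1, 2 and 3 had 10.4, 7.54 and 2.59 FPKM, averaging 6.84 ± 3.95 (SD, n = 3). InR was thus detected in every cell, highest in cell 1 and lowest in cell 3, and it was the only one of the 8 genes with its highest value in cell 1, where 27.1% of genes above 0 in some cell had theirs. About 714, 488 and 175 fragments lay behind these values, with 95% Poisson intervals of 662 to 768 in cell 1 and 150 to 203 in cell 3. Such intervals cover counting error only, and the share of all genes with intervals apart between cells was not computed. Set among all genes of the same cell, those at 0 included, InR was at percentile 72.4 in cell 1, 59.1 in cell 2 and 55.7 in cell 3. Of 11922 genes, 4969, 6337 and 6061 were above 0 in these cells, so the percentiles do not share 1 scale. InR was below the median FPKM of genes above 0 in each cell (30.99, 21.7 and 23.4). Among 19 receptor tyrosine kinase genes, of which 7 were detected in all cells (31.1% of all genes were), InR ranked 5, 6 and 10 in cells 1, 2 and 3. By FPKM it was therefore neither the highest kinase receptor of these cells nor among those listed at 0.

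AkhR encodes the receptor by which these cells were marked, and it was set against InR because the study names the hormones of both as signals to these neurons. In cell 1 InR was at 10.4 FPKM and AkhR at 14.7. In cell 2 InR was at 7.54 and AkhR at 1.90, and in cell 3 InR was at 2.59 and AkhR at 2.52. On the log2(FPKM + 1) scale InR minus AkhR came to -0.46, 1.56 and 0.03 in cells 1, 2 and 3, averaging 0.38 ± 1.05 (SD, n = 3). InR was higher in 2 of 3 cells, but the mean difference was smaller than its spread (exact two-sided sign-flip permutation p = 0.75). The difference was above 1 on this scale in cell 2 alone, and without that cell the mean difference turned to -0.21. The receptors of the satiety and the hunger hormone were therefore not separated beyond the spread between cells, and AkhR, like InR, had its highest value in cell 1.

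The substrate adaptor gene chico (FBgn0024248, chromosome 2L from 10242512 to 10247078, minus strand) was the lowest of the 8 genes by mean FPKM, though not without cell 2 or without cell 3, and on the log2 scale the mean of Pi3K92E (1.59) was below that of chico (1.79) and of Akt (1.72). Cells 1, 2 and 3 had 0.375, 2.79 and 6.89 FPKM, averaging 3.35 ± 3.30 (SD, n = 3), and 1.58 without cell 3. About 8.20, 57.4 and 148 fragments lay behind these values. The 95% Poisson intervals were 3.58 to 16.0 fragments in cell 1, 43.6 to 74.4 in cell 2 and 125 to 174 in cell 3. The exons of chico overlap those of an antisense RNA gene, asRNA:CR44995, which had no line, and whether the counting used strand is not given in the sources used here. Lnk, which encodes another adaptor that binds InR, was at 33.0, 23.6 and 33.4 FPKM in cells 1, 2 and 3. The adaptor gene chico was thus lowest in cell 1, where InR was highest. Of the 7207 genes above 0 in some cell, 40.0% were lowest there. Lnk stayed within a range of 0.48 on the log2 scale. The difference chico minus Lnk was -3.15 ± 1.31 on the log2 scale, lower for chico in 3 of 3 cells, a pair that was chosen after its values were seen and carries no test.

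PI3K is built of a catalytic subunit, encoded by Pi3K92E, and a regulatory subunit that ties it to Chico and InR, encoded by Pi3K21B. Pi3K92E (FBgn0015279, chromosome 3R from 20628972 to 20634732, minus strand) was listed at 0 in cell 1, at 1.09 FPKM in cell 2 and at 12.2 FPKM in cell 3. Its mean of 4.43 FPKM was set by cell 3, and without that cell it was 0.545. For this gene 3 fragments would give an FPKM of 0.0999 in cell 1, and about 30.8 fragments (95% Poisson interval 20.9 to 43.8) lay behind its value in cell 2. Pi3K21B (FBgn0020622, chromosome 2L from 297880 to 305233, plus strand) was at 7.92, 16.6 and 31.8 FPKM in the same order of cells, averaging 18.8 ± 12.1 (SD, n = 3) and 12.3 without cell 3, with about 196, 386 and 773 fragments behind these values. Both subunit genes were lowest in cell 1 and highest in cell 3, and the catalytic one was below the regulatory one in each cell. Pi3K21B exceeded Pi3K92E by 15.2-fold in cell 2 and 2.61-fold in cell 3, and in cell 1 no ratio can be given. The difference Pi3K92E minus Pi3K21B came to -3.16, -3.07 and -1.32 on the log2(FPKM + 1) scale, averaging -2.52 ± 1.04 (SD, n = 3). It was negative in 3 of 3 cells (exact two-sided sign-flip permutation p = 0.25, the smallest that 3 cells can give). With a pseudocount of 0.1 the mean difference was -3.84 ± 2.47.

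Akt (FBgn0010379, chromosome 3R from 16099228 to 16105670, plus strand) encodes the kinase that carries the signal from PI3K to FOXO. Cells 1, 2 and 3 had 0.889, 11.4 and 0.521 FPKM, averaging 4.26 ± 6.17 (SD, n = 3). Akt was thus detected in cell 2 alone, and its mean over the 3 cells is set by that cell: without cell 2 it was 0.705. About 22.6 fragments (95% Poisson interval 14.2 to 34.0) lay behind the value in cell 1, 272 (241 to 307) behind that in cell 2 and 13.0 (6.94 to 22.3) behind that in cell 3. By this estimate the low values in cells 1 and 3 still rested on more than the 3 fragments taken as the floor, and their intervals overlapped.

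The transcription factor gene foxo (FBgn0038197, chromosome 3R from 14056945 to 14087978, plus strand) was at 3.34, 3.42 and 15.6 FPKM in cells 1, 2 and 3, averaging 7.45 ± 7.05 (SD, n = 3). About 80.6, 77.6 and 370.2 fragments lay behind these values. By counting error alone, cells 1 and 2 could not be told apart in foxo. Their 95% Poisson intervals (64.0 to 100.2 and 61.3 to 96.9 fragments) overlapped. Cell 3 was above both in FPKM. Without cell 3 the mean was 3.38.

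Thor (FBgn0261560, chromosome 2L from 3478434 to 3479612, plus strand) encodes 4E-BP, a small protein that holds back the translation initiation factor eIF4E and is itself shut off by TOR. Cells 1, 2 and 3 had 36.3, 154 and 182 FPKM, averaging 124 ± 77.2 (SD, n = 3). These values rested on about 171, 683 and 842 fragments. Among all genes of its cell, those at 0 included, Thor was at percentile 80.4, 95.7 and 95.9, lower in cell 1 than in cells 2 and 3. Within cells Thor exceeded foxo by 10.9-fold in cell 1, 45.1-fold in cell 2 and 11.7-fold in cell 3. The difference Thor minus foxo was 3.90 ± 1.08 on the log2(FPKM + 1) scale and positive in 3 of 3 cells (exact two-sided sign-flip permutation p = 0.25, the smallest possible). Both genes were highest in cell 3, and Thor was lowest in cell 1. In cell 2 Thor was close to its level in cell 3, whereas foxo was at its level in cell 1.

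ImpL2 (FBgn0001257, chromosome 3L from 4224006 to 4236147, minus strand) had the highest mean of the 8 genes. Cells 1, 2 and 3 had 53.3, 316 and 157 FPKM, averaging 176 ± 132 (SD, n = 3) and 105 without cell 2. Its percentile among all genes of the cell, those at 0 included, was 84.5, 98.0 and 95.0. Its 4 transcripts range from 989 to 2355 bases, so the number of fragments behind the value in cell 1 lies between about 349 and 832, depending on the transcript. Its exons also overlap those of the protein-coding gene CG46460 on the same strand, which had no line, and reads of these genes cannot be told apart here. ImpL2 was highest in cell 2, where the glial genes repo (51.5 FPKM, against 3.77 in cell 1 and 9.63 in cell 3) and moody (50.1, against 4.54 and 0.613) and the hormone gene Akh (816, against 30.1 and 161) were highest too. Among the other glial markers, Gs2 (615, against 370 and 469) and Eaat1 (130, against 21.3 and 127) were highest there as well. The glial markers wrapper (323, against 732 and 568) and nrv2 (770, against 1585 and 1764) were lowest there. Of the 7207 genes above 0 in some cell, 39.3% were highest in cell 2. The summed FPKM of the 6 glial markers was 2717, 1940 and 2939 in cells 1, 2 and 3 and thus lowest in cell 2, and the part of other cell types in the level of ImpL2 was not tested. Within cells ImpL2 exceeded InR by 5.13-fold in cell 1, 41.9-fold in cell 2 and 60.7-fold in cell 3. At mean transcript lengths of 1540.5 and 10366 bases, ImpL2 had about 544 fragments in cell 1 and InR about 714. Over their annotated transcripts the numbers in cell 1 ran from 349 to 832 for ImpL2 and from 688 to 737 for InR. Which gene had more fragments in cell 1 thus cannot be told. In cells 2 and 3 ImpL2 had more fragments than InR (3037 against 488, and 1580 against 175). The difference ImpL2 minus InR was 4.31 ± 1.79 on the log2(FPKM + 1) scale and positive in 3 of 3 cells (exact two-sided sign-flip permutation p = 0.25, the smallest possible).

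Across these 4 comparisons between genes, the adjusted p (Benjamini-Hochberg) was 0.333 for the 3 pairs that kept their direction in every cell and 0.75 for InR and AkhR. With 3 cells no such test can reach 0.05.

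**Figure D2:**
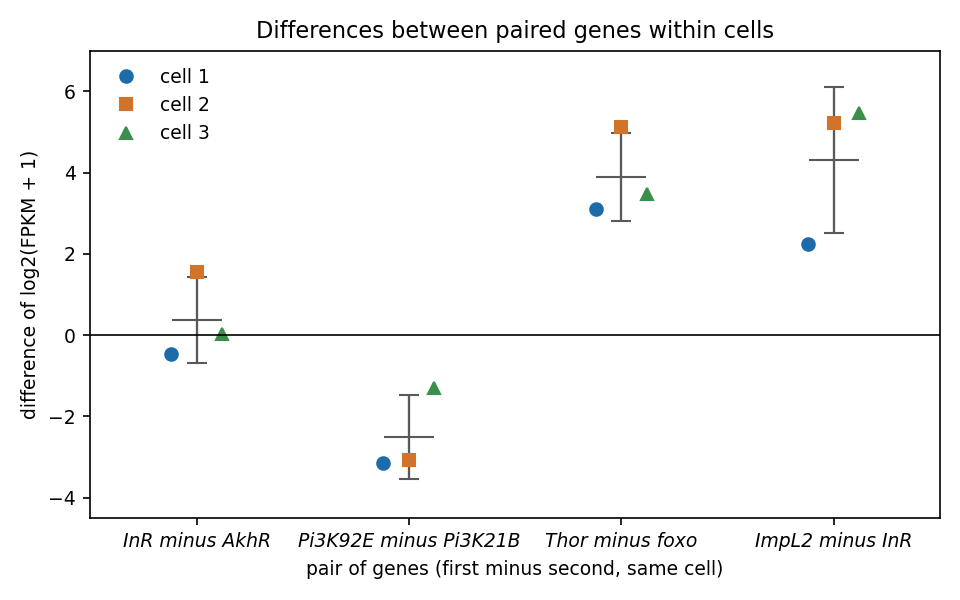
Within-cell differences of log2(FPKM + 1) for 4 pairs of genes, each the first gene minus the second. Points are the 3 cells, bars and whiskers the mean ± SD. Thor minus foxo and ImpL2 minus InR are above 0 in each cell, Pi3K92E minus Pi3K21B is below 0 in each cell, and InR minus AkhR lies on both sides of 0.

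By mean FPKM the order of the genes was ImpL2, Thor, Pi3K21B, foxo, InR, Pi3K92E, Akt and chico. It changed whichever cell was left out. Without cell 1 InR (5.07) fell below Pi3K92E (6.64) and Akt (5.95). Without cell 2 Thor (109) passed ImpL2 (105), and chico (3.63) passed Akt (0.705). Without cell 3 foxo (3.38) fell below InR (8.97) and Akt (6.14), and Pi3K92E (0.545) became the lowest. In the order over all 3 cells there were 7 pairs of neighbours. Of these, only Thor over Pi3K21B (mean log2 difference 2.56 ± 0.54) and Pi3K21B over foxo (1.34 ± 0.57) kept their order in all 3 cells with a mean difference above its SD. ImpL2 was above Thor in cells 1 and 2 and below it in cell 3, with a mean log2 difference of 0.46 ± 0.62. The genes from foxo down to chico did not differ from their neighbours beyond the spread between cells. Over all 28 pairs, 18 kept their order in every cell, among them all 12 pairs of ImpL2 or Thor with another of the 6 genes. ImpL2 and Thor also had the shortest mean transcripts of the 8 genes (1540.5 and 711 bases), the others being between 3304 bases for chico and 10366 bases for InR, and the part of transcript length in the order was not tested.

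The range between the highest and the lowest cell on the log2(FPKM + 1) scale ran from 1.67 for InR to 3.72 for Pi3K92E, with a median of 2.41 over the 8 genes, and the median over the 7207 genes above 0 in some cell was 2.41 too. With a pseudocount of 0.1 these medians were 2.44 and 3.44. A range of at least 2, close to 4-fold, was seen in 5 of the 8 genes and in 57.8% of those 7207 genes. Cell 1 was lowest for 6 of the 8 genes (chico, Pi3K92E, Pi3K21B, foxo, Thor and ImpL2), where 40.0% of the 7207 genes had their lowest value. For foxo the difference from cell 2 was small (3.34 against 3.42 FPKM). Cell 3 was highest for 5 of the 8 (chico, Pi3K92E, Pi3K21B, foxo and Thor), where 33.6% of the 7207 genes were highest. InR and Akt, 2 of the 8, were lowest in cell 3, as 19.8% of the 7207 genes were, and Akt and ImpL2 were highest in cell 2, as 39.3% were. A range can only shrink or stay when a cell is left out. Without cell 1 the median range of the 8 genes was 1.15, without cell 2 it was 1.91 and without cell 3 it was 1.26. For genes above 0 in at least 1 of the cells kept, the median range was 1.09, 1.51 and 1.73 in the same order.

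**Figure D3:**
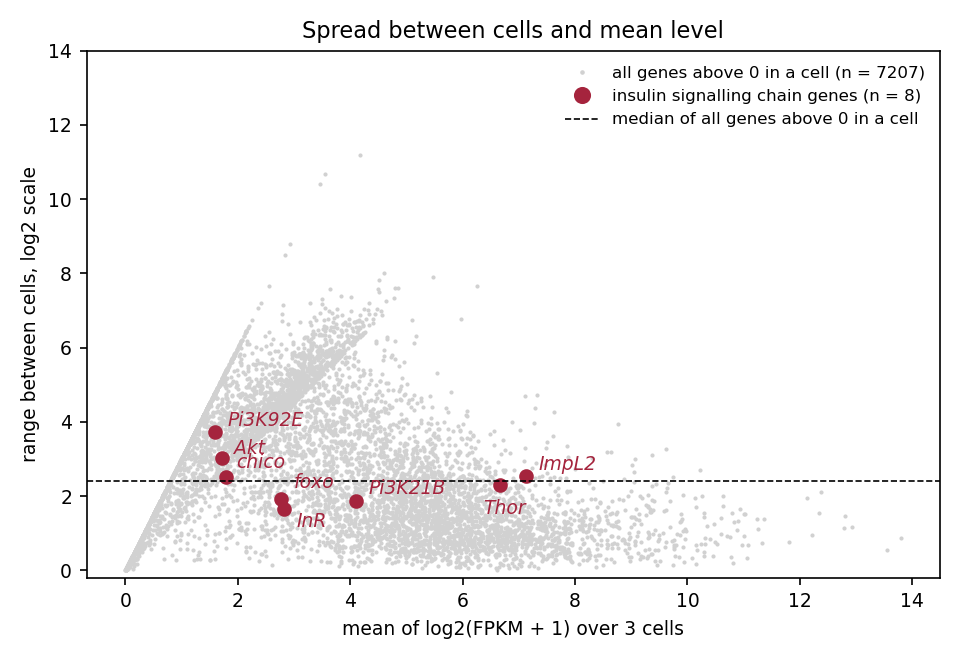
Range between cells (highest minus lowest log2(FPKM + 1)) against the mean level over 3 cells. Grey points are the 7207 genes above 0 in some cell, red points the 8 insulin chain genes, and the dashed line is the median range of all 7207 genes. The 8 genes lie on both sides of that line, from InR at 1.67 to Pi3K92E at 3.72.

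The ligands of InR were read in the same libraries. Of the 7 insulin-like peptide genes with a line, 2 were detected in all 3 cells, 3 in some cells and 2 in none, beside 31.1% of all genes in all 3 cells. Ilp2 was at 84.1, 25.2 and 40.9 FPKM in cells 1, 2 and 3, and Ilp5 at 160.3, 10.7 and 126. Ilp3 was at 98.6 and 30.6 in cells 1 and 2 and listed at 0 in cell 3. Ilp2, Ilp3 and Ilp5 are known as the peptides of the insulin-producing cells of the brain, and whether their transcripts belonged to the marked cells was not tested. Ilp1 was listed above 0 in cell 1 only (9.57 FPKM) and Ilp6 in cell 2 only (31.3 FPKM), while Ilp4 and Ilp7 were listed at 0 throughout. The summed FPKM of the peptide genes was 353, 97.8 and 167 in cells 1, 2 and 3. ImpL2, whose product binds these peptides, was at 53.3, 316 and 157. It was lowest in the cell with the highest peptide sum and highest in the cell with the lowest sum. This comparison was not among those planned and carries no test.

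The other genes of the chain were taken from a list of 21, of which 17 had a line. Of the 17, 9 were detected in all cells (31.1% of all genes were), 6 in some and 2 in none, with a median of their mean FPKM of 18.7. That of the 8 genes was 7.15, and that of the genes above 0 in some cell was 17.5. The SH2 adaptor gene drk was at 18.6, 28.3 and 47.5 FPKM in cells 1, 2 and 3, and dock at 3.20, 55.8 and 20.7. Both were lowest in cell 1, and drk, like chico, was highest in cell 3.

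The TORC2 subunit genes rictor and Sin1, whose complex phosphorylates Akt, were at 0.251, 8.79 and 2.59 FPKM and at 0.441, 12.5 and 41.5 in cells 1, 2 and 3. The gene of its kinase, mTor, was listed at 0 in cells 1 and 2 and was at 4.24 in cell 3. The gene wdb, a subunit of the phosphatase PP2A that acts on Akt, was at 0.713, 21.6 and 33.9. The genes rictor, Sin1 and wdb were lowest in cell 1, as 40.0% of the 7207 genes were. The genes of 14-3-3 proteins, which hold phosphorylated FOXO in the cytoplasm, were the highest of the list. 14-3-3epsilon was at 1252, 847 and 1374 FPKM and 14-3-3zeta at 663, 942 and 1294. The kinase gene sgg (GSK3, a substrate of Akt) was at 29.6, 107 and 165. Downstream of Akt on the TOR side, Rheb was at 102, 48.8 and 158 and S6k at 41.5, 47.3 and 35.4, while the TSC complex genes gig and Tsc1 were at 2.28, 8.89 and 8.59 and at 0, 14.9 and 10.0. The TORC1 subunit gene raptor was listed at 0 in cells 1 and 2 and was at 0.564 in cell 3, and melt was listed at 0 throughout. The gene step, which encodes the cytohesin Steppke, was at 0, 2.70 and 45.9. S6k and Lnk differed least between cells among the genes of this list that were above 0, with ranges of 0.41 and 0.48 on the log2 scale.

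**Figure D4:**
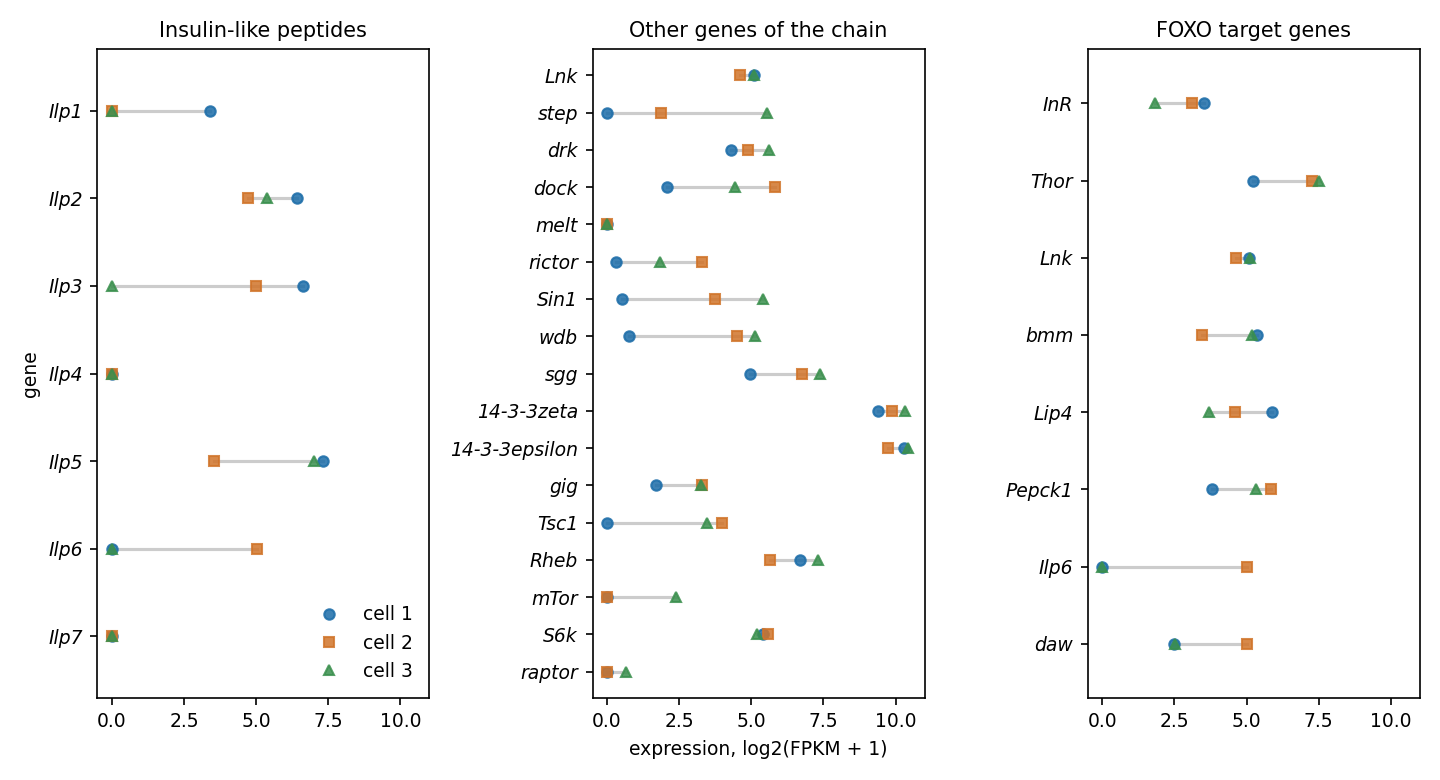
Expression in log2(FPKM + 1) of 7 insulin-like peptide genes, 17 other genes of the chain and 8 FOXO target genes, 1 gene a line. Points are the 3 cells and the grey line joins the lowest to the highest. The 14-3-3 genes are the highest, Lnk and S6k are close together in all cells, and Ilp4, Ilp7 and melt are at 0 in each.

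Genes known from the fly as targets of FOXO were listed as a group of 9, of which 8 had a line and 7 were detected in all 3 cells (31.1% of all genes were). InR, Thor and Lnk belong to this list as well as to the chain. The lipase gene bmm, which releases stored fat, was at 40.4, 9.90 and 35.6 FPKM in cells 1, 2 and 3, and the lipase gene Lip4 at 58.5, 23.5 and 11.8. Pepck1, which encodes a key enzyme of glucose production, was at 12.9, 56.2 and 39.4, and the activin-like ligand gene daw at 4.58, 31.7 and 4.73. Over the 8 genes the median of the mean FPKM was 29.3. The targets did not share an order of cells: Thor and, by a small margin, Lnk were highest in cell 3, Pepck1, daw and Ilp6 in cell 2, and InR, bmm and Lip4 in cell 1.

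Genes with the pattern nearest to a member were found by the largest absolute difference of log2(FPKM + 1) over the 3 cells. For InR they were hbn, CG32537 and CG7536, all within 0.23 of it in each cell. For Thor they were CG40470, Hsc70-3 and Mgstl, within 0.31, and for ImpL2 they were Srrm234, CG2269 and Gel, within 0.37. Hsc70-3, for example, was at 43.4, 143 and 148 FPKM where Thor was at 36.3, 154 and 182. With 3 cells such likeness is a description of levels only.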

How the data were processed

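RNA of 3 libraries of AKHR+ cells was reverse transcribed, amplified as cDNA and sequenced. The authors removed low-quality reads, adaptors and primers, mapped the reads to the fly genome and deposited FPKM per gene. The submitters' processing notes name HISAT, and the version, the quantifier, the genome build, the annotation and strand use are not given in the sources used here. No molecular identifiers are described, so PCR copies count as fragments, and intervals and floors cover counting error only. Cell 3 is numbered by its label, although the heading of its value column gives a different sample number.

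Each library had 12180 lines and 11922 gene IDs, of which 117 stood on several lines and were averaged. The 8 genes had 1 line each. Symbols and coordinates are from BDGP6 (Ensembl release 115), whose build may differ from that of the authors. No non-zero value was identical between cells (0 genes). FPKM was analysed as log2(FPKM + 1), which understates differences of low genes. Depth was estimated from genes with 1 transcript, by the step that placed values of up to 10 fragments on whole numbers (66.5%, 46.6% and 58.0% of 194, 161 and 176 values within 0.1). Fragments per gene used the mean transcript length, with exact 95% Poisson intervals and a floor of 3 fragments. Differences within cells were tested by exact sign-flip permutation. The range between cells and the depth estimate were checked on simulated data, and the sign-flip test on fixed values.

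The members and lists were chosen with earlier results of these data known. Named genes were the 8 members, AkhR, all insulin-like peptides, and genes of the chain and FOXO lists, with the 3 genes nearest in pattern to InR, Thor and ImpL2. Beyond the 21 other genes of the chain, 1 further gene of that list is not reported here. The symbols susi and Lobe of the chain list were not matched, and Sdr, Lst8, Ilp8, Sesn, nSyb, alrm and NimC1 had no line. Hml, the hemocyte marker with a line, was at 1.65, 3.46 and 8.97 FPKM in cells 1, 2 and 3. Alternatives left out each cell in turn, used a pseudocount of 0.1, other detection thresholds, summed lines, rescaled cells or another background. Python 3.11.15, numpy 2.4.6, pandas 2.3.3, scipy 1.17.1 and matplotlib 3.10.9 were used.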

Additional observations from a re-analysis of the deposited data

How the results depend on the processing

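Of 84 values computed under the alternatives for 15 results, 74 were counted as the same. The criterion was direction for differences and the SD between cells for levels. It was the SD between the 8 genes for their median range, and a fold limit for the number of genes detected. Part of the count of 74 was fixed in advance. Summing lines could not change genes with 1 line each. A pair with the same direction in all 3 cells keeps it under every alternative used. The difference InR minus AkhR reversed to -0.21 without replicate 2, and lay between -0.21 and 0.79 over the 3 fits without 1 cell. The median range between cells of the 8 genes lay between 1.15 and 1.91 over such fits. It was 1.15 without replicate 1 and 1.26 without replicate 3, beside 1.09 and 1.73 for genes above 0 in at least 1 of the 2 cells kept. Those values rest on fewer samples. The number of genes detected in all cells was 5, and it went to 3 at FPKM of at least 5 and to 2 at FPKM of at least 10. It was 7 without replicate 1 and 7 at FPKM above 0. Rescaling each cell to a sum of 1000000 raised all genes of a cell alike and took the median of the 8 genes to 18.5. The mean of each of the 8 genes rose with it, for InR, Pi3K21B, Thor and ImpL2 by more than the SD between cells. The pseudocount of 0.1 did not turn InR minus AkhR, the only pair it could turn. It moved Pi3K92E minus Pi3K21B to -3.84 ± 2.47 and the median range of genes above 0 to 3.44. Genes were paired within cells, but no paired comparison of groups was possible because there is only 1 group. With 3 cells the smallest sign-flip p is 0.25, and with 2 cells it is 0.5, so none of these tests could pass 0.05 under any alternative.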
